A study of Arabidopsis thaliana with 6 samples.

Results

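Small heat shock proteins of the cytosol and the peroxisome of Arabidopsis thaliana are described here through 7 probe sets of the ATH1 array, of 22746 that are not array controls. A probe set is a group of short probes designed against a transcript, and some sets match transcripts of several genes. The members were chosen by their higher signal in the atsf1-2 mutant than in Col-0, in the arrays described here, and by the gene they are taken to represent. Their difference between the genotypes is therefore a description and carries no test. The annotation used here names a single gene for 3 members, AT5G37670, AT1G53540 and AT2G29500. For the other 4 it lists no gene. These are named HSP17.4, HSP18.2, HSP17.6A and HSP17.6II, after the loci they were chosen to represent, and that pairing was not checked here.

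The mutant plants were atsf1-2 seedlings, which carry a mutation in AtSF1, a pre-mRNA splicing factor, in the Col-0 background. They were compared with wild-type Col-0 seedlings. Both were grown untreated on MS agar at 23 C in long days and harvested whole after 9 days, with 3 biological replicates and 1 array for each. The labels give a single mutant allele and do not describe the lesion. In whole seedlings, a change in RNA per cell and a change in the number of cells that express a gene cannot be told apart.

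Small heat shock proteins are chaperones that form oligomers and hold unfolding proteins in a soluble state until chaperones of the HSP70 and HSP100 families refold them. Their genes are among the most strongly heat-induced genes of plants, through heat shock factors that bind their promoters, and several are also active in maturing seeds. Plant families are divided into classes by sequence and compartment. Class I and class II proteins lie in the cytosol, and other members are carried into peroxisomes, mitochondria, plastids or the endoplasmic reticulum.

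Median signals, on a linear intensity scale, lay between 164.8 and 195.1 over the 6 arrays, whose number limits the precision of every value. The medians were 164.8, 181.2 and 170.7 in atsf1-2 and 192.2, 195.1 and 182.1 in Col-0. Every atsf1-2 median was thus below every Col-0 median, in places narrowly, and the cause was not tested. An array from each genotype, atsf1-2 replicate 3 and Col-0 replicate 2, was unlike the rest in its actin control probes. The 3'-over-5' signal ratio of actin was 2.47 on atsf1-2 replicate 3 and 2.14 on Col-0 replicate 2, against 3.36 to 3.63 on the other arrays. The same ratio of the GAPDH control set only Col-0 replicate 2 apart. It was 0.896 there and 1.09 on atsf1-2 replicate 3, against 1.04 to 1.15 on the other arrays. The members' values are given with and without both arrays. The AtSF1 gene, AT5G51300, was not analysed here because it has no probe set of its own in the annotation used, and its transcript could not serve as a check of the genotypes. Of 8 listed leaf and photosynthesis markers only 1, and of 6 listed root markers 3, had a probe set of their own. The leaf gene RCA, which encodes Rubisco activase, gave signals of 22459 ± 3707 in atsf1-2 and 19974 ± 2058 in Col-0 (SD, n = 3 each; adjusted p in limma 0.460). The root genes PYK10, EXPA7 and EXPA18 had log2 fold changes of -0.0061 ± 0.098, -0.028 ± 0.18 and -0.064 ± 0.15 (SE), with signs that depended on the scaling, and none passed limma's adjusted threshold. No probe set is paired here with a listed seed or flower marker.

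Both class II genes were far higher in atsf1-2 than in Col-0. The class II gene HSP17.6A (AT5G12030, probe set 250351_at) had signals of 8804, 7384 and 11029 in atsf1-2 and of 999, 945 and 824 in Col-0. The lowest atsf1-2 array was 7.39 times the highest Col-0 array. The means were 9073 ± 1837 in atsf1-2 and 923 ± 89.8 in Col-0 (SD, n = 3 each), and the geometric means differed 9.73-fold, a log2 fold change of 3.28 ± 0.16 (SE).

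HSP17.6II (AT5G12020, probe set 250296_at), the other class II gene, varied least among the members. It had signals of 3750, 4053 and 3616 in atsf1-2 and of 444, 481 and 438 in Col-0. Within each genotype the arrays lay close together, with coefficients of variation of 5.89% in atsf1-2 and 5.19% in Col-0. Its means were 3806 ± 224 in atsf1-2 and 454 ± 23.57 in Col-0 (SD, n = 3 each), and its log2 fold change was 3.07 ± 0.12 (SE). HSP17.6A and HSP17.6II are neighbours on chromosome 5 in the RefSeq gene order of TAIR10.1, with no protein-coding gene between them.

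AT5G37670 (probe set 249575_at) is the peroxisomal member, a short protein of the family that is imported into that organelle. It had signals of 4864, 4270 and 4696 in atsf1-2 and of 606, 563 and 683 in Col-0. The genotypes were separated by a ratio of 6.26 between the lowest atsf1-2 and the highest Col-0 array. Its mean was 4610 ± 306 in atsf1-2 and 617 ± 60.4 in Col-0 (SD, n = 3 each), and its log2 fold change was 2.90 ± 0.13 (SE).

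The 4 class I genes were all higher in atsf1-2, with differences that spanned a wide range. AT1G53540 (probe set 260978_at), known as HSP17.6C, had signals of 3393, 3351 and 3827 in atsf1-2 and of 523, 577 and 439 in Col-0. Its log2 fold change of 2.79 ± 0.14 (SE) was the highest of the class and the median of all 7 members. HSP17.4 (AT3G46230, probe set 252515_at), a heat-induced class I protein also known from seeds, had signals of 7882, 8456 and 9357 in atsf1-2 and of 1615, 2071 and 1280 in Col-0. The lowest atsf1-2 array was 3.81 times the highest Col-0 array, and the log2 fold change was 2.40 ± 0.16 (SE).

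AT2G29500 (probe set 266294_at), known as HSP17.6B, had signals of 6518, 5925 and 7042 in atsf1-2 and of 1481, 2186 and 1398 in Col-0. Its Col-0 arrays spread more than its atsf1-2 arrays, with coefficients of variation of 8.60% in atsf1-2 and 25.7% in Col-0, and Col-0 replicate 2 was the high one. Its log2 fold change was 1.97 ± 0.17 (SE), and 2.11 without Col-0 replicate 2 and atsf1-2 replicate 3.

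HSP18.2 (AT5G59720, probe set 247691_at), whose promoter is widely used as a heat-inducible promoter, had the smallest difference of the members. Its signals were 289, 416 and 435 in atsf1-2 and 149, 195 and 148 in Col-0. All 3 mutant arrays lay above all 3 wild-type arrays, but the lowest atsf1-2 array was only 1.48 times the highest Col-0 array. The means were 380 ± 79.4 in atsf1-2 and 164 ± 27.0 in Col-0 (SD, n = 3 each), a 2.30-fold difference of geometric means and a log2 fold change of 1.201 ± 0.20 (SE). Probe sets with a geometric mean signal under 104.44 were left out as dim, and the Col-0 signals of HSP18.2 were not far above that. With a pseudocount of 38.3 its log2 fold change was 1.04.

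**Figure D1:**
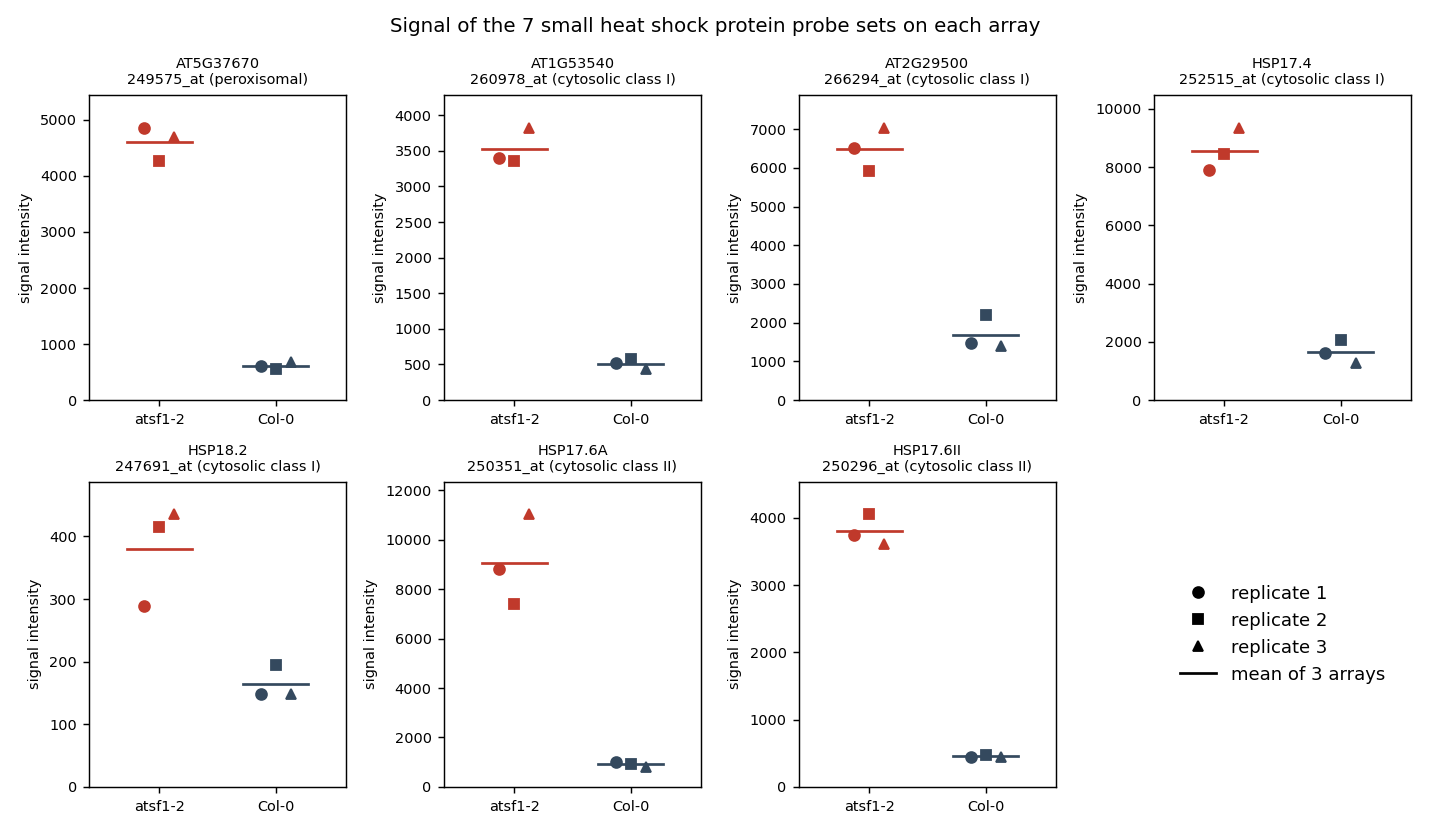
Signal intensity (linear axis from 0) of each member on each array, with atsf1-2 left and Col-0 right in each panel; symbols are replicates and bars are means of 3 arrays. In every panel the 3 atsf1-2 arrays lie above the 3 Col-0 arrays, by the smallest ratio, 1.48, for HSP18.2.

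The genotypes did not overlap for any of the 7 members, and the ratio of the lowest atsf1-2 to the highest Col-0 array ran from 1.48 to 7.51. Over all 13648 probe sets that passed the filter, every atsf1-2 array lay above every Col-0 array for 12.1%. The members were chosen by this contrast, so nothing follows from that comparison, nor from the rank and the medians given next. All 7 members passed the filter, and HSP17.6A had the third-highest log2 fold change of all tested probe sets. The median log2 fold change was 2.79 over the 7 members and -0.070 over all tested probe sets. Centring each array on its median shifted the median of all tested probe sets by 0.14, to 0.071, and gave 2.93 for the members.

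Ordered by log2 fold change, the members ran from HSP17.6A through HSP17.6II, AT5G37670, AT1G53540, HSP17.4 and AT2G29500 to HSP18.2. The first 4 had differences that lay close together. The steps between them were 0.22, 0.16 and 0.12 on the log2 scale, each smaller than the spread within genotypes of the ratio of the 2 probe sets (pooled SDs of 0.28, 0.19 and 0.25). The next steps were larger than that spread. AT1G53540 exceeded HSP17.4 by 0.39 (pooled SD 0.12), HSP17.4 exceeded AT2G29500 by 0.43 (pooled SD 0.13), and AT2G29500 exceeded HSP18.2 by 0.77 (pooled SD 0.26). A log2 fold change can be compressed by unspecific signal, to a degree that may differ between probe sets and was not measured here.

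Replicates of a genotype differed in a way that several members shared. In atsf1-2, replicate 3 was highest for 5 members, with deviations of 0.30 for HSP17.6A and 0.22 for HSP18.2, while HSP17.6II was at -0.072. In Col-0, replicate 2 was highest and replicate 3 lowest for 5 members, among them all 4 class I genes. Replicates 1 and 3 of Col-0 were almost equal for HSP18.2 (148.9 and 148.2) and HSP17.6II (443.6 and 437.7), so their order there means little. The shares of all tested probe sets with these orders of the replicates were not counted. The class I deviations on Col-0 replicate 2 from the genotype mean were 0.40 for AT2G29500, 0.35 for HSP17.4, 0.26 for HSP18.2 and 0.18 for AT1G53540 on the log2 scale. AT5G37670 went the other way on that array, with -0.13. The median deviation of the members was 0.12 on atsf1-2 replicate 3 and 0.18 on Col-0 replicate 2, where that of all tested probe sets was -0.016 and -0.0036. These are the arrays that were unlike the rest in the actin ratio, and the part of that difference in the deviations was not tested. Without both, the log2 fold changes were 3.15 for HSP17.6A, 3.15 for HSP17.6II, 2.82 for AT5G37670, 2.82 for AT1G53540, 2.51 for HSP17.4, 2.11 for AT2G29500 and 1.22 for HSP18.2.

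**Figure D2:**
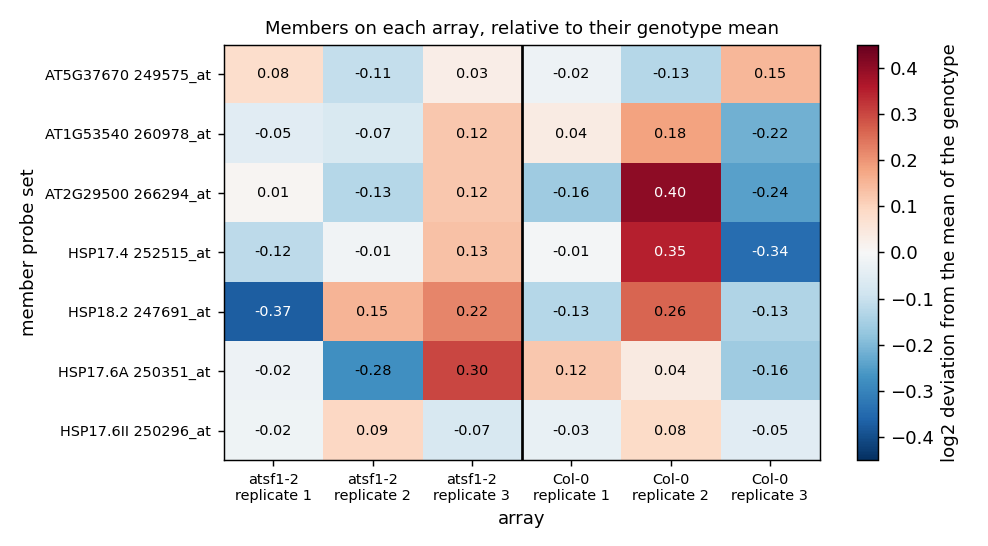
Log2 deviation of each member (rows) from the mean of its genotype on each array (columns), with atsf1-2 left and Col-0 right of the line. Col-0 replicate 2 shows the highest deviations of the class I genes, up to 0.40, and atsf1-2 replicate 3 is above the genotype mean for 6 of 7 members.

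Other genes of the family were also higher in the mutant, though not all. A single probe set is annotated with both remaining class I loci, AT1G59860 and AT1G07400, which it does not tell apart. Its signals were 4123, 3236 and 4283 in atsf1-2 and 1021, 1112 and 1032 in Col-0, a log2 fold change of 1.87 ± 0.14 (SE), at a limma adjusted p of 2.88e-05. Of 12 other listed family genes, 7 had a tested probe set of their own, of which 5 rose and 2 did not pass. Over all 13648 tested probe sets, 3.00% were called higher and 5.19% lower at a limma adjusted p under 0.05. The split depended on the scaling: higher calls made up 36.6% of all calls here and 67.6% after median centring. The array medians were lower in atsf1-2 than in Col-0, and median centring removes that difference. The median log2 fold change of the 7 tested genes was 1.32. Over all lists, tissue markers included, 10 of 21 tested genes were called higher, and 11 without both arrays of low actin ratio. The lists were chosen with earlier results of these data known, so these counts are a description. The class III gene AT1G54050, whose protein is known from the nucleus, averaged 3018 ± 463 in atsf1-2 and 1161 ± 212.9 in Col-0 (SD, n = 3 each; limma adjusted p = 0.00149). HSP18.5 (AT2G19310) averaged 7242 ± 871 in atsf1-2 and 3978 ± 423 in Col-0 (SD, n = 3 each; limma adjusted p = 0.00407).

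The other 3 that rose act in organelles, namely ATHSP22.0 of the endoplasmic reticulum and HSP26.5 and HSP23.5 of mitochondria, with log2 fold changes of 4.16 ± 0.37, 3.03 ± 0.24 and 1.32 ± 0.13 (SE) and limma adjusted p-values of 0.000168, 5.96e-05 and 0.000359. The Col-0 side of 2 of them was dim. ATHSP22.0 had Col-0 signals of 64.1, 198 and 59.9 and HSP26.5 had 81.3, 104 and 52.1. Both passed the filter at 104.44 only through their atsf1-2 signals. The count and median of this list, the count over all lists and the sizes of both genes' fold changes therefore rest in part on dim values. With the pseudocount of 38.3 their log2 fold changes were 3.65 and 2.51, with limma adjusted p-values of 4.31e-05 and 2.01e-05. HSP15.4 (AT4G21870) differed by 0.47 ± 0.18 on the log2 scale (SE; adjusted p in limma 0.132), with atsf1-2 arrays that overlapped those of Col-0, and passed with array weights (0.0319). HSP21.7 (AT5G54660) averaged 292 ± 41.1 in atsf1-2 and 317 ± 28.8 in Col-0 (SD, n = 3 each), a difference of -0.12 ± 0.16 on the log2 scale (SE; adjusted p in limma 0.681) whose sign turned after quantile normalization or median centring.

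Transcripts of genes whose proteins work beside the small heat shock proteins were partly higher as well. Of 18 listed co-chaperones and other heat response genes, 7 were tested, 4 rose and none fell, with a median log2 fold change of 0.70. Over all tested probe sets, 3.00% were called higher and 5.19% lower. This list was chosen with earlier results of these data known, so its count is a description. HSA32 (AT4G21320), needed to keep acquired heat tolerance, averaged 1181 ± 212.5 in atsf1-2 and 522 ± 55.8 in Col-0 (SD, n = 3 each; limma adjusted p = 0.00344). FES1A (AT3G09350), which supports cytosolic HSP70 in heat, averaged 956 ± 114 in atsf1-2 and 494 ± 67.6 in Col-0 (SD, n = 3 each; limma adjusted p = 0.00604). ROF2 (AT5G48570), an immunophilin of the heat response, averaged 5668 ± 633 in atsf1-2 and 3084 ± 324 in Col-0 (SD, n = 3 each; limma adjusted p = 0.00392).

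HOP2 (AT1G62740), whose protein links HSP70 with HSP90, rose by 0.70 ± 0.14 on the log2 scale (SE; adjusted p in limma 0.0151). It no longer passed when Col-0 replicate 2 was left out (adjusted p 0.0607 in limma), when Col-0 replicate 3 was (0.0547), or when the replicate number was a block (0.0525). The related HOP3 had 0.55 ± 0.17 (SE, limma adjusted p = 0.0662) and HOP1 had 0.13 ± 0.16 (SE, limma adjusted p = 0.638). The HSP90 co-chaperone P23-1 had 0.33 ± 0.13 (SE, limma adjusted p = 0.134). HOP3 passed with median centring, with array weights and without both arrays of low actin ratio (limma adjusted p = 0.0227, 0.0114 and 0.0422).

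Of 22 listed HSP70, HSP90 and HSP100 genes, which take over substrates from small heat shock proteins, 2 were tested, both of the cytosolic HSP70 family. HSC70-3 (AT3G09440) averaged 5758 ± 1251 in atsf1-2 and 3659 ± 510 in Col-0 (SD, n = 3 each), a difference of 0.64 ± 0.16 on the log2 scale (SE; adjusted p in limma 0.0360). It passed in 6 of 15 alternatives and missed the threshold in 9, among them leaving out atsf1-2 replicate 1, Col-0 replicate 1, Col-0 replicate 2 or Col-0 replicate 3 (adjusted p in limma 0.111, 0.114, 0.115 and 0.0547) and leaving out both arrays of low actin ratio (0.0619). HSC70-2 (AT5G02490) had 0.51 ± 0.15 (SE, limma adjusted p = 0.0619) and passed in 4 alternatives, namely without atsf1-2 replicate 3 (0.0225), without both arrays of low actin ratio (0.0347), with median centring (0.0356) and with array weights (0.0122). None of 21 listed heat shock factors, the transcription factors of the response, has a probe set named here. Among 21 listed genes of peroxisome function, HPR1 (AT1G68010), a photorespiratory enzyme, was the only tested one, and differed by -0.24 ± 0.12 on the log2 scale (SE; adjusted p in limma 0.215).

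**Figure D3:**
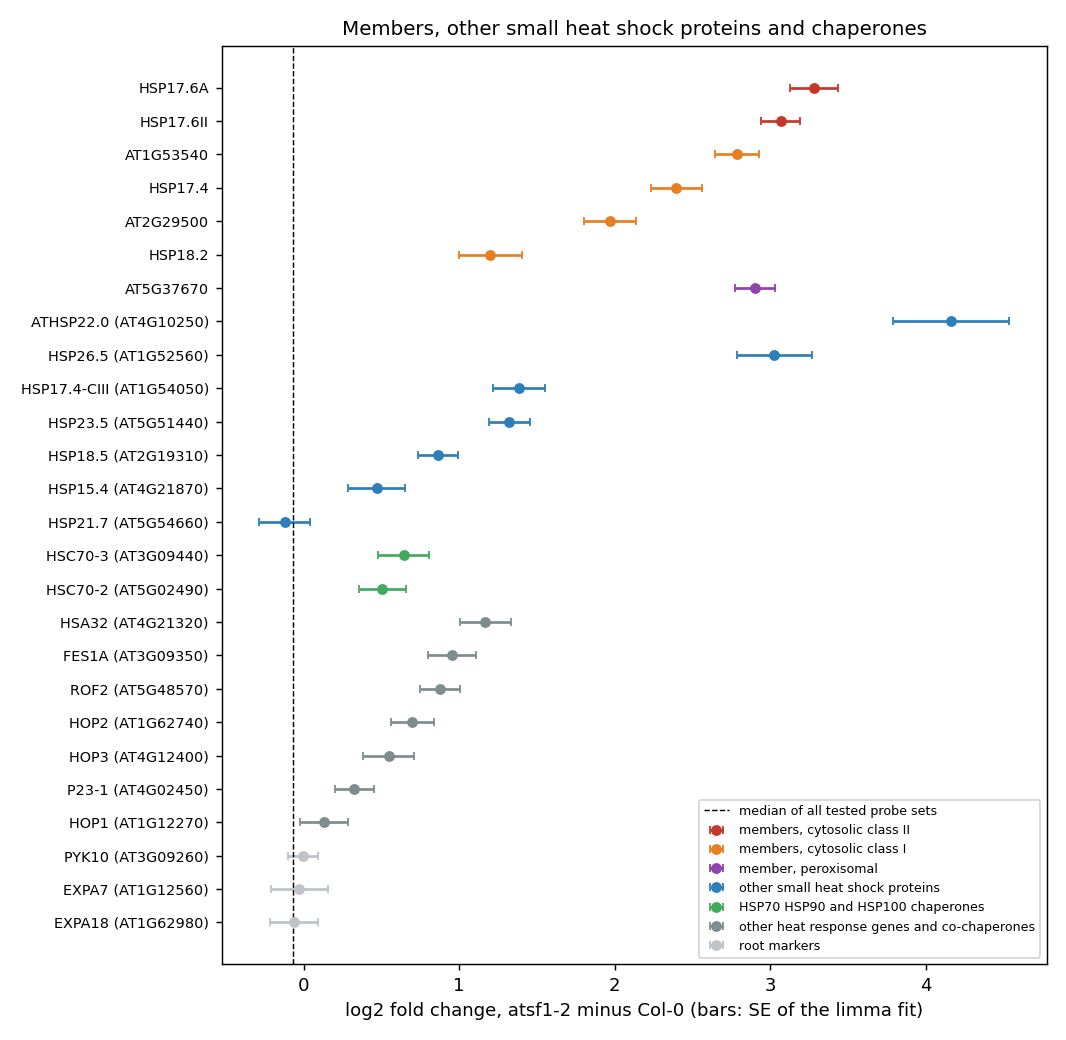
Log2 fold change (atsf1-2 minus Col-0, bars are SEs of the limma fit) of the members by class, of other small heat shock proteins, of chaperones and co-chaperones, and of root markers; the dashed line is the median of all tested probe sets. The members lie between 1.201 and 3.28, the tested co-chaperones and HSP70 genes between 0.13 and 1.17, and the root markers near 0.

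Among 7274 other tested probe sets paired with 1 gene, the profiles most like the mean of the members were found by Euclidean distance over the 6 arrays, on log2 signals centred on their own mean. Such a distance takes in the size of the difference between genotypes, by which the members were chosen, so the list is a description. Both the members and these genes share the same 6 arrays. The nearest was AT2G21640, a gene known as a marker of oxidative stress, at a distance of 0.52 (Pearson's r = 0.998). Its signals averaged 1414 ± 236 in atsf1-2 and 189 ± 22.2 in Col-0 (SD, n = 3 each). The mitochondrial small heat shock gene AT1G52560, which is the HSP26.5 described above, followed at a distance of 0.81 (r = 0.992). Its means were 623 ± 68.1 in atsf1-2 and 79.2 ± 26.1 in Col-0 (SD, n = 3 each). AT2G04050, which encodes a MATE transporter, lay at 0.84 (r = 0.978), with 389 ± 43.0 in atsf1-2 and 57.5 ± 20.3 in Col-0. AT1G52560 and AT2G04050 passed the filter only through their atsf1-2 signals, and every Col-0 array was below 104.44 for both, so their distances and r rest on dim Col-0 values. AT2G41730, AT3G10020 and AT2G04460 lay at distances of 0.95, 1.07 and 1.19 (r = 0.976, 0.975 and 0.966). For these 3 the genotypes did not overlap either, and the means were 606 ± 148, 3387 ± 247 and 1973 ± 472 in atsf1-2 and 168 ± 37.1, 998 ± 135 and 645 ± 157 in Col-0. The members lay between 0.31 (HSP17.4) and 1.66 (HSP18.2) from their own mean, which they make up, and the median distance of the 7274 probe sets was 3.22. An r over 0.95 was reached by 93 of them. The probe set of AT2G41730 is of the kind whose probes can match other transcripts.

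**Figure D4:**
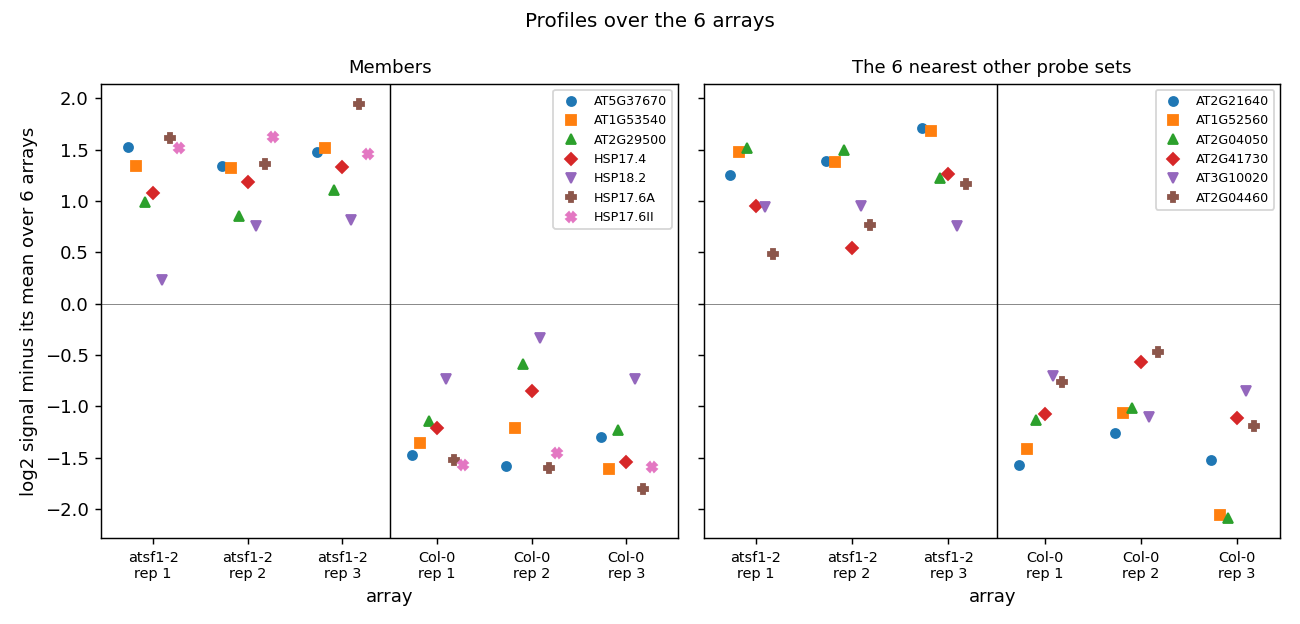
Log2 signal minus its mean over 6 arrays for the members (left panel) and the 6 nearest other probe sets (right panel), with atsf1-2 arrays left and Col-0 arrays right of the line in each panel. All points of atsf1-2 lie above 0 and all of Col-0 below; HSP18.2 spans the smallest range among the members.

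Genes beside the members on the chromosomes were also examined, in the RefSeq gene order of TAIR10.1. Of 12 protein-coding neighbours that are no members, 6 had a tested probe set of their own. None passed limma's adjusted threshold. Over all tested probe sets, 3.00% were called higher and 5.19% lower, so none of 6 says little about the neighbours. An unadjusted limma p under 0.05 was found for 1 neighbour, and the share of all probe sets with such a p was not counted. That gene was AT3G46220, next to HSP17.4, which averaged 202 ± 35.2 in atsf1-2 and 287 ± 16.0 in Col-0 (SD, n = 3 each), a difference of -0.52 ± 0.18 on the log2 scale (SE; adjusted p in limma 0.0928). The neighbours AT5G12010 and AT5G12040, on either side of the class II pair, had log2 fold changes of 0.18 ± 0.16 and 0.031 ± 0.14 (SE). AT1G53530, beside AT1G53540, had 0.27 ± 0.19 (SE). AT5G37680, beside AT5G37670, had -0.038 ± 0.14, and AT2G29510, beside AT2G29500, had -0.22 ± 0.18 (SE).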

How the data were processed

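RNA of 6 whole-seedling samples was labelled with biotin and hybridised to 1 ATH1 array each, per the labels' protocols. The authors deposited a linear signal intensity for each probe set on each array. The submitters' processing notes name MAS5 and Affymetrix Expression Console 1.2 and no settings. Genotypes and replicates come from the titles.

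The 64 control probe sets were left out. No scaling was added before taking log2, and probe sets at or above the 40th percentile of mean log2 signal were kept. Genotypes were compared over all genes on the array that were kept with limma 3.58.1 in R 4.3.3 (lmFit, eBayes with trend, two-sided, Benjamini-Hochberg adjustment over all kept probe sets, threshold 0.05). The fit was tested on simulated data, with independent noise of equal spread on every array. The real arrays need not be like that. No p is given for members.

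Of 22746 probe sets, 13513 name 1 gene, 503 several and 8730 none, and 13436 were matched to RefSeq (TAIR10.1). Probe sequences were not used here, so cross-hybridisation between related genes was not examined. Promoter motifs and protein identities were planned and are not analysed here.

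The members and the 9 gene lists, of 120 loci with 21 tested probe sets, were chosen with earlier results of these data known. Named are all members, from each list at most 6 called genes (where none was called, at most 2, by smallest p), and the 6 nearest profiles. Other list genes, the probe set with 2 genes and the neighbours were named after their values were seen.

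Results were recomputed with all probe sets, with the 60th percentile as filter, after adding 38.3 to each signal (the 25th percentile over all signals), after quantile normalization or median centring, with no trend in eBayes, with weights per array, with the replicate block, without each array in turn, and without both arrays of low actin ratio.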

Additional observations from a re-analysis of the deposited data

How the results depend on the processing

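Each member stayed higher in atsf1-2 under every alternative run, which is a description and no test. The members were chosen by this contrast, and their genotypes did not overlap. Leaving out arrays, array weights, the pseudocount and the replicate block could therefore not turn a sign. The replicate block cannot move a fold change in this balanced design. The log2 fold changes moved by more than the pooled SD between replicates for AT5G37670 with median centring (3.04) and for HSP17.6II with the pseudocount (2.96) and median centring (3.21), where each setting shifts or compresses all values by construction. Leaving out a single array cannot move a fold change by more than that SD in this design, so those settings were no test of the members. Of the list genes, 10 were called higher, 8 to 13 under the alternatives (8 with the replicate block), and 0 lower under any.

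Over all probe sets, 409 were higher and 709 lower. Array weights gave 947 higher and 1713 lower, median centring 755 and 362, all probe sets without a filter 267 and 439, and eBayes with no trend 271 higher. Leaving out single arrays gave 130 to 463 higher and 151 to 777 lower. The cause was not tested. The titles do not say that equal replicate numbers were paired, and the deviations of arrays of equal number had correlations of 0.10, -0.19 and -0.21. Correlations between arrays of unequal number ran from -0.25 to 0.32. The highest was between atsf1-2 replicate 3 and Col-0 replicate 2, the arrays of low actin ratio. With the replicate block, 171 were higher and 263 lower.

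Some log2 fold changes near 0 turned sign. HSP21.7 had 0.013 after quantile normalization and 0.019 with median centring, and RCA had -0.027 after quantile normalization. EXPA7 had 0.12, 0.11, 0.046 and 0.13, and EXPA18 had 0.049 and 0.076, after quantile normalization, with median centring and, for EXPA7, with array weights and without both arrays of low actin ratio. PYK10 had 0.13 with median centring, 0.024 with array weights and 0.019 without both arrays. Without single arrays the values ran from -0.058 to 0.039 for PYK10, from -0.13 to 0.11 for EXPA7 and from -0.18 to 0.038 for EXPA18. Small differences may go undetected with 3 arrays per genotype.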
